A study of Mus musculus with 12 samples.

Results

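The genes described here encode transporters of glutamate, GABA and glycine in the mouse retina. They were chosen by name: 9 genes were listed, and every probe set annotated with 1 symbol among them was taken. A probe set is the group of short DNA probes that together measure 1 transcript on the array. Of the 9 genes 8 had such a probe set, with 21 probe sets in all, out of 18193 genes and 34945 probe sets with 1 symbol on the array. The signal of *Slc17a8*, which encodes the vesicular glutamate transporter VGLUT3, was not analysed here.

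RNA of whole retinas was hybridized to 12 Affymetrix GeneChip arrays, 3 for each of 4 groups. The *Otx2* CKO groups at postnatal day 1 (P1) and at P12 had the genotype *Otx2* flox/flox with Crx-Cre, and the control groups at P1 and P12 had *Otx2* flox/flox without Crx-Cre, so that all 4 groups carried the floxed *Otx2* alleles. Crx-Cre expresses Cre recombinase under control of *Crx*, in cells of the photoreceptor lineage. The labels number the arrays of each group as experiments 1 to 3 and do not say whether these are separate animals, so that p-values measure the spread between these samples. The question was how loss of *Otx2* changes gene expression in the developing retina, and for the present genes which transmitter transport genes differed between the genotypes at each age.

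Glutamate is the transmitter of photoreceptors, bipolar cells and ganglion cells, whereas amacrine cells mostly release GABA or glycine. Vesicular transporters of the Slc17 and Slc32 families load the transmitter into synaptic vesicles. Transporters of the plasma membrane (Slc1 for glutamate, Slc6 for GABA and glycine) remove it from the synaptic cleft, and Slc38 proteins carry glutamine, from which neurons make glutamate and GABA.

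Signals are given after quantile normalization of the 12 arrays, in the linear signal units of the array software. Differences were tested with limma on log2(signal + 16) in 1 model of the 12 arrays, for probe sets with a deposited group mean of 50 or more in a group of the comparison. The p-values of a comparison were adjusted by the Benjamini-Hochberg method over every probe set tested in it, with a threshold of 0.05, and fold values are ratios of mean signals. Where a gene has several probe sets, the one with the highest mean log2 signal stands for the gene. Levels of different probe sets are not set against each other, because each set of probes binds with its own strength.

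The targeted gene was measured first. The *Otx2* signal was 96.6, 113.6 and 67.5 in the P12 *Otx2* CKO arrays, against 937.4, 592.4 and 588.3 in the P12 control arrays, a log2 change of −2.72 (SE 0.23, adjusted p = 5.28e-06). At P1 it was 376.6, 336.3 and 426.7 in the *Otx2* CKO arrays, against 900.7, 841.1 and 639 in the control arrays, and these arrays did not overlap either (log2 change −1.02, SE 0.23, adjusted p = 0.250). The free-text descriptions of 8 samples name the other genotype, and the grouping used here is that of the title, source name and genotype field, to which the *Otx2* signals correspond. Brightness differed between arrays: the 2% trimmed mean of the deposited signals was 108 to 172 in the P12 *Otx2* CKO arrays and 96.4 to 111 in the P12 control arrays, and 21.8 to 27.9 in the P1 *Otx2* CKO arrays and 28.5 to 30.1 in the P1 control arrays. With 3 arrays a group, the number of arrays limits the precision.

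At P12 the glutamate transporter genes *Slc17a7* and *Slc1a2* were lower in the *Otx2* CKO retina than in the control retina, and the inhibitory transporter genes *Slc32a1* and *Slc6a9* were higher. All 8 genes were tested at P12, through 14 probe sets, of which 3 fell and 3 rose. Over all 21390 probe sets tested at this age 13.9% were called (7.09% lower and 6.79% higher). Of these calls 48.9% were higher, and 75.7% with the signals as deposited, where the 4 member genes kept their direction and their calls. The model used here leaves out the experiment number, which pairs the arrays within an age, and with it as a block 7158 probe sets were called (3009 lower and 4149 higher). The signal ranges of both genotypes were apart in each of the 3 lower and 3 higher probe sets, as they were in 11.3% of all probe sets tested with the *Otx2* CKO arrays below and in 12.9% with them above. The median log2 change of the 8 genes was 0.23, beside 0.08 for all probe sets tested. The signal limit was set on the deposited signals, which were dimmer at P1, so that a gene left untested there is not shown to be little expressed. At P1 only 3 of the 8 genes (4 probe sets) reached the signal limit and none was called, where 0.227% of the 8384 probe sets tested were called (0.227% lower and 0% higher). The arrays of the genotypes overlapped in each of these 4 probe sets, whereas they were apart in 4.01% of all probe sets tested with the *Otx2* CKO arrays below and in 4.83% with them above.

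**Figure D1:**
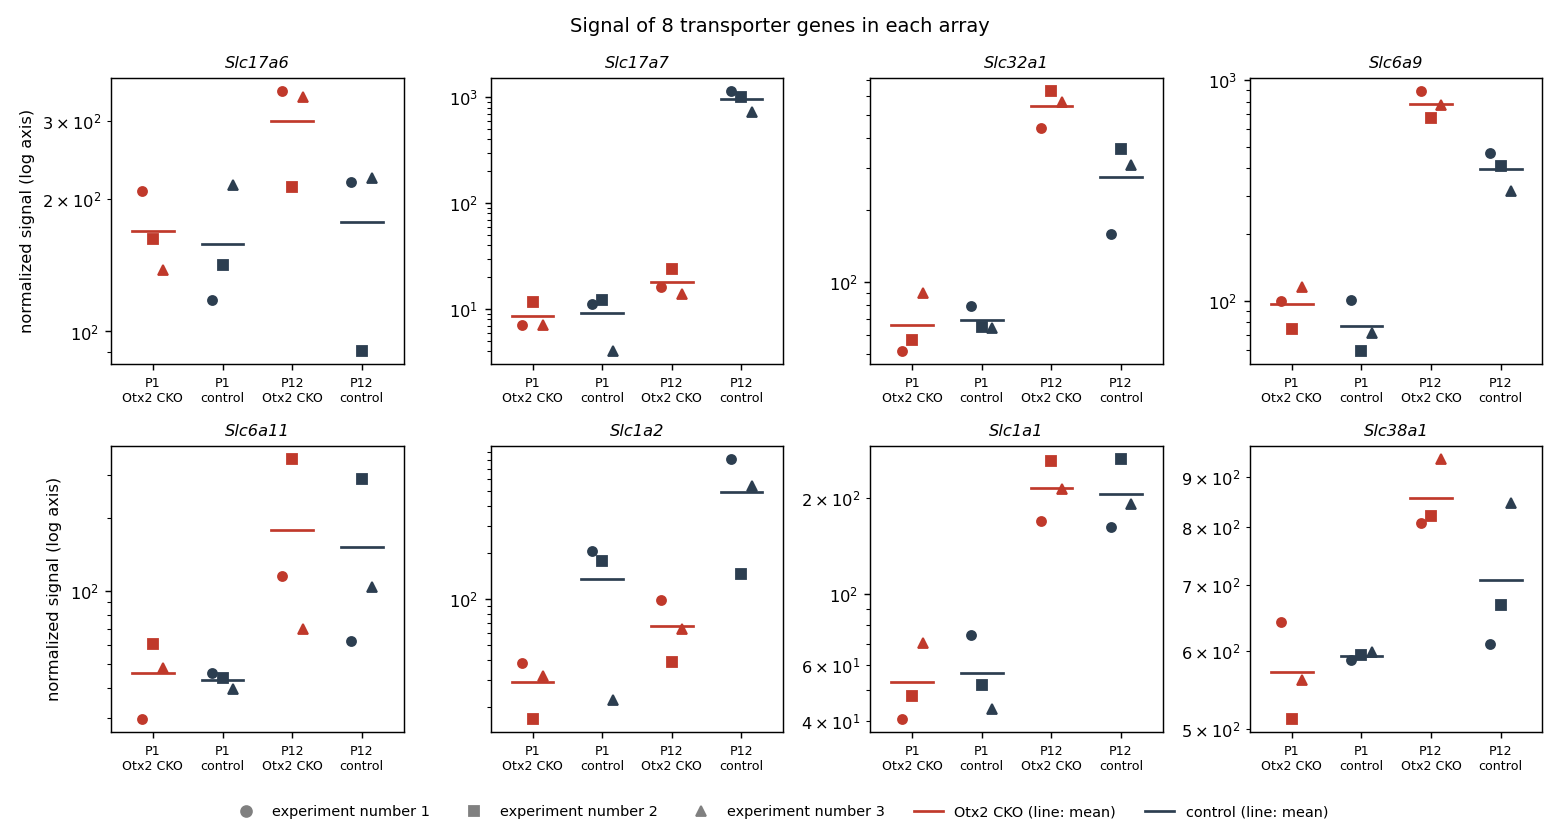
Normalized signal (log axis, own range in each panel) of the leading probe set of the 8 transporter genes in each array, with *Otx2* CKO arrays in red, control arrays in dark blue, the experiment number as the marker shape and the group mean as a line. *Slc17a7* lies between 13.9 and 23.8 in the P12 *Otx2* CKO arrays and between 727.1 and 1137.9 in the P12 control arrays, and the P12 arrays of *Slc6a9* and *Slc32a1* are also apart, with the *Otx2* CKO arrays higher.

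To show the DNA at the start of the 4 genes called at P12, their windows from 250 bases before to 50 bases after the annotated transcription start follow (RefSeq, build GRCm38.p6, 5′ to 3′ on the gene's strand). Capitals mark TAATC, a core sequence recognized by Otx2 and Crx, searched on both strands, so that GATTA in capitals is a match on the opposite strand. For *Slc6a9*, which has 3 windows, the first is printed.
Slc17a7, chr7:45163671-45163970, + strand: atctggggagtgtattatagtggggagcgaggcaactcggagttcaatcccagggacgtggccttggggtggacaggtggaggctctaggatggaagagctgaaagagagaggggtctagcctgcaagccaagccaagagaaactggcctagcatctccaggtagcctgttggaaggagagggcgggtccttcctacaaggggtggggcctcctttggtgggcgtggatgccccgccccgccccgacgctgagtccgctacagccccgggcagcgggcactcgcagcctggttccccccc
Slc1a2, chr2:102706188-102706487, + strand: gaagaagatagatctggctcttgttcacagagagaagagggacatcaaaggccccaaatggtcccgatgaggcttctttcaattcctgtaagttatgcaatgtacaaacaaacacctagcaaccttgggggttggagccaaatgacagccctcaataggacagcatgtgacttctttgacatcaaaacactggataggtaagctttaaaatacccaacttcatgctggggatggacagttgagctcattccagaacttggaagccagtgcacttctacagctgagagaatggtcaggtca
Slc32a1, chr2:158610508-158610807, + strand: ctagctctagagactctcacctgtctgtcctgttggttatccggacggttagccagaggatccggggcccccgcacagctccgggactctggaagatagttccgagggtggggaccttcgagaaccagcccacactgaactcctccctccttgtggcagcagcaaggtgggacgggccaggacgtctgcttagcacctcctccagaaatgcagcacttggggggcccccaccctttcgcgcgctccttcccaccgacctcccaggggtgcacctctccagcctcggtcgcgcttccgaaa
Slc6a9, chr4:117835008-117835307, + strand: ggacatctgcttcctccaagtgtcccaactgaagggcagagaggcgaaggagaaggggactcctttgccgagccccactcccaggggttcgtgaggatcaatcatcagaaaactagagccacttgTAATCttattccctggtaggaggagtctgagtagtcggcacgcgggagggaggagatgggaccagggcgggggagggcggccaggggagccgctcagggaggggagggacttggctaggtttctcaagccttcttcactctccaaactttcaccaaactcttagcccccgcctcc
The *Slc6a9* window has 1 match, 125 bases before the start, and the windows of *Slc17a7*, *Slc1a2* and *Slc32a1* have none. In all, 8 of the 9 listed genes had 12 windows, *Slc17a8* among them and *Slc38a1* not, and 2 of these windows held a match (the other belongs to *Slc17a6*). Of all 32851 windows 22.0% held TAATC on either strand. A match is a description of the letters only, and the window is a small part of the DNA around a gene.

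Among the vesicular transporters, *Slc17a7* was lower at P12, with the largest change of the tested member probe sets on the log2(signal + 16) scale. It encodes VGLUT1, which loads glutamate into the synaptic vesicles of photoreceptors and bipolar cells. The signal of its probe set (1428986_at) was 16.3, 23.8 and 13.9 in the P12 *Otx2* CKO arrays, against 1137.9, 1001.3 and 727.1 in the P12 control arrays. The 3 *Otx2* CKO arrays were close together, and the lowest control array was far above them. The means were 17.99 ± 5.19 in the *Otx2* CKO retina and 955 ± 209 in the control retina (SD, n = 3 each), and log2(signal + 16) was lower in the *Otx2* CKO retina by a change of −4.82 (SE 0.22, adjusted p = 9.40e-08). Within its array the signal stood at percentile 42.3 to 52.9 in the P12 *Otx2* CKO arrays and at percentile 97.4 to 98.6 in the P12 control arrays. How much of the *Otx2* CKO signal is background was not tested, and no fold is given. The study chose *Slc17a7* for its list of strongly lowered genes from these same arrays, so that its direction here is not independent evidence.

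At P1 the same probe set was low in both genotypes, with 7.1, 11.6 and 7.1 in the *Otx2* CKO arrays and 11.1, 12.2 and 4 in the control arrays. It was below the signal limit at that age and was not tested. The genotype effect at P12 differed from that at P1 by −4.81 on the log2 scale (SE 0.31, adjusted p = 1.64e-05), where 3.79% of the 21530 probe sets tested for this difference were called (2.75% lower and 1.04% higher). With both P1 groups below the limit, this difference largely restates the P12 change. In the *Otx2* CKO retina the signals of both ages were too low to be tested. In the control retina log2(signal + 16) was 5.27 higher at P12 than at P1 (adjusted p = 1.40e-08), and no fold is given because the P1 signals stood at percentile 19.8 to 39.6 of their arrays.

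Markers of photoreceptors and bipolar cells are given beside this result. At P12 the 6 tested markers of rods, the 6 of cones and the 8 of bipolar cells were all lower in the *Otx2* CKO retina. Over all probe sets tested at P12 7.09% were called lower. The remaining bipolar marker, *Trpm1*, was too low to be tested, with P12 means of 24.6 in the *Otx2* CKO retina and 25.1 in the control retina. The summed signal of the rod list was 468 to 992 in the *Otx2* CKO arrays and 19037 to 20177 in the control arrays, that of the cone list 145 to 252 in the *Otx2* CKO arrays and 3318 to 4545 in the control arrays, and that of the bipolar list 365 to 458 in the *Otx2* CKO arrays and 4648 to 5164 in the control arrays. Of these lists 2 of 6 rod markers, 3 of 7 cone markers and 5 of 9 bipolar markers had a deposited signal under 50 in every P12 *Otx2* CKO array. Those of them that were tested passed the filter only through the P12 control arrays, which favours a fall. *Pde6a*, *Pde6b*, *Cnga1*, *Nrl*, *Opn1mw*, *Pcp2* and *Cabp5* are also on the study's list of strongly lowered genes from these same arrays. The direction of these markers is therefore not independent evidence. In RNA of whole retina, fewer cells of a type and less RNA per cell cannot be told apart.

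The second vesicular glutamate transporter, *Slc17a6* (VGLUT2), is known from retinal ganglion cells and was not called at either age. Its leading probe set (1428379_at) gave 349.8, 212 and 339.2 in the P12 *Otx2* CKO arrays, against 218.2, 90.2 and 222.4 in the P12 control arrays. The groups overlapped, because experiment number 2 was the lowest array in both genotypes. The log2 change was 0.77 (95% interval 0.05 to 1.49, adjusted p = 0.156), and the other probe set (1418610_at) gave 0.40 (−0.20 to 1.003, adjusted p = 0.409). Within each experiment number the leading probe set was higher in the *Otx2* CKO array, by 0.64, 1.10 and 0.58 on the log2 scale, and in a fit with the experiment number as a block within each age it passed the threshold (limma adjusted p = 0.0147). None of the 7 tested ganglion cell markers was called at P12, where 13.9% of all probe sets tested were called. The summed signal of their list was 3591 to 4824 in the *Otx2* CKO arrays and 3101 to 3597 in the control arrays. At P1 the change of the leading probe set was 0.11 (−0.62 to 0.84, adjusted p = 0.9996).

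*Slc32a1* encodes VGAT, the vesicular transporter of both inhibitory transmitters, found in amacrine and horizontal cells. Its signal (1422756_at) was 441.3, 625.6 and 566.7 in the P12 *Otx2* CKO arrays, against 158.8, 361.3 and 307 in the P12 control arrays. All *Otx2* CKO arrays were above all control arrays, and experiment number 1 was the lowest array of each genotype. The means were 545 ± 94.1 in the *Otx2* CKO retina and 276 ± 105 in the control retina (SD, n = 3 each), 1.98-fold higher in the *Otx2* CKO retina (log2 change 1.002, SE 0.28, adjusted p = 0.0335). The call was lost under median scaling of the arrays (adjusted p = 0.200), under 2% trimmed mean scaling (0.0585), without the signal filter (0.0528), in a fit of the P12 arrays alone (0.136), and in 7 of 12 fits without 1 array (0.0501 to 0.103).

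At P1 *Slc32a1* gave 51.5, 57.6 and 90.1 in the *Otx2* CKO arrays and 79.5, 65.2 and 64.5 in the control arrays, which overlap. The probe set was under the limit in the deposited signals and was not tested at P1. The effect at P12 exceeded that at P1 by 1.08 on the log2 scale (SE 0.40), which did not pass the threshold (adjusted p = 0.200) but did with the experiment number as a block within each age (adjusted p = 0.0157). The 3 other probe sets of *Slc32a1* had deposited signals of at most 15.8 in any array and were tested nowhere.

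**Figure D2:**
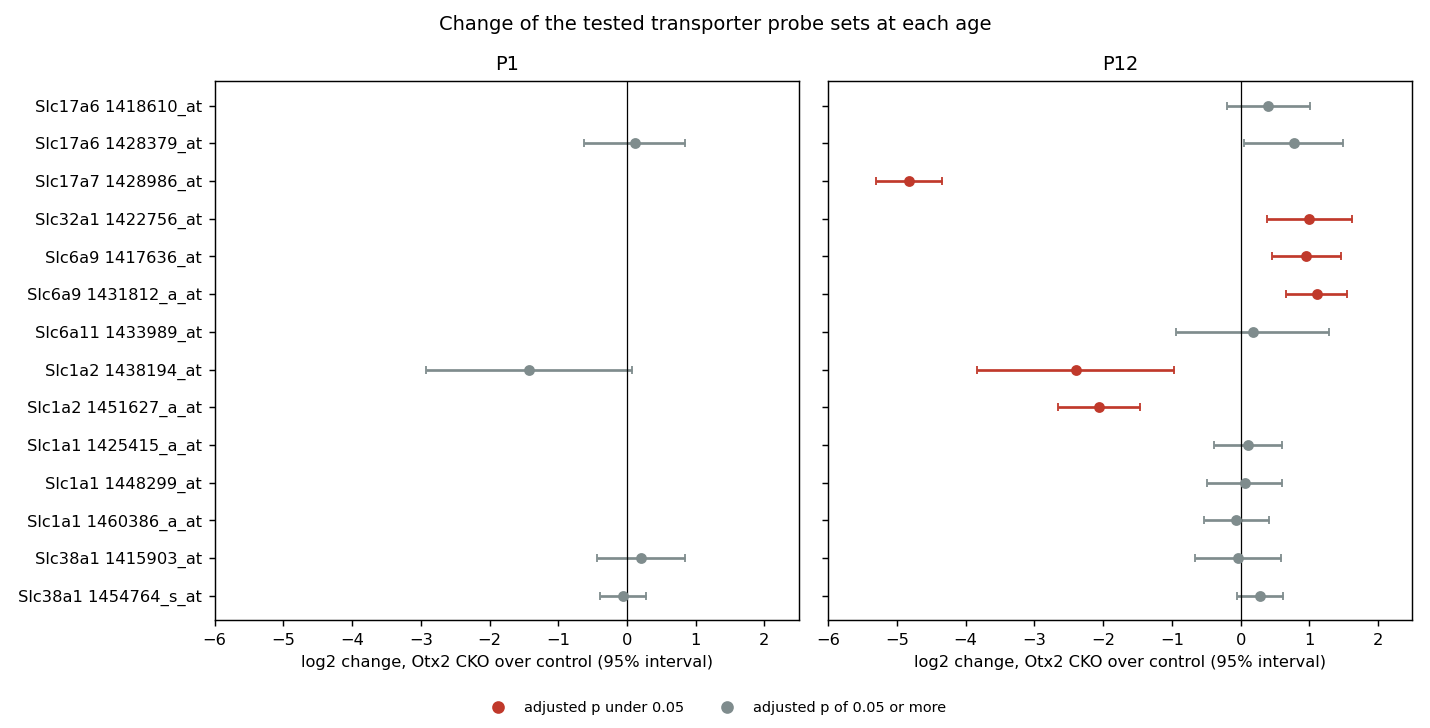
Log2 change, *Otx2* CKO over control, with its 95% interval for each tested transporter probe set at P1 (left, 4 probe sets) and at P12 (right, 14 probe sets), in red where the adjusted p was under 0.05. The 3 lower and 3 higher probe sets at P12 belong to *Slc17a7* and *Slc1a2*, and to *Slc32a1* and *Slc6a9*, whereas the interval of *Slc1a2* at P1 reaches 0.08 and no P1 probe set was called.

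Of the plasma membrane transporters of glycine and GABA, *Slc6a9* was called higher. It encodes GLYT1, which in the retina is known from glycinergic amacrine cells. Its leading probe set (1417636_at) gave 889.9, 673.8 and 773.9 in the P12 *Otx2* CKO arrays, against 467.8, 408.8 and 313.4 in the P12 control arrays. The groups did not overlap. The means were 779 ± 108 in the *Otx2* CKO retina and 397 ± 77.9 in the control retina (SD, n = 3 each), 1.96-fold higher in the *Otx2* CKO retina (log2 change 0.96, SE 0.23, adjusted p = 0.0148). The second probe set (1431812_a_at) gave 290.9, 236 and 338.4 in the P12 *Otx2* CKO arrays, against 141.1, 120.6 and 112.4 in the P12 control arrays, again without overlap (2.31-fold, log2 change 1.10, SE 0.21, adjusted p = 0.00301). The call of the leading probe set was lost under median scaling (adjusted p = 0.0667), whereas that of the second probe set was kept under each alternative run. The study's text names this gene, with other amacrine markers, as increased in these arrays, so that its direction is not independent evidence. With the signals as deposited, the log2 ratio of the P12 group means was larger than after normalization, at 1.28 (1417636_at) and 1.59 (1431812_a_at).

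At P1 *Slc6a9* gave 99.9, 74.7 and 116 in the *Otx2* CKO arrays and 100.4, 59 and 71.4 in the control arrays (1417636_at), which overlap. Its deposited P1 signals were under the limit, so that it was not tested at that age. The effect of the second probe set at P12 exceeded that at P1 by 1.10 on the log2 scale (SE 0.29, adjusted p = 0.0587, or 0.00617 with the experiment number as a block within each age). For the leading probe set this difference was 0.67 (95% interval −0.04 to 1.37, adjusted p = 0.365).

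Amacrine cells express *Slc32a1* and *Slc6a9*, and 3 of 9 tested amacrine markers were also higher at P12 (*Pax6*, *Th* and *Dab1*), with none lower. Over all probe sets tested at P12 6.79% were called higher and 7.09% lower. The summed signal of the 10 listed genes was 6256 to 6684 in the P12 *Otx2* CKO arrays and 4484 to 4965 in the P12 control arrays. Much of this difference was *Pax6*, with a mean of 1854 in the *Otx2* CKO retina and 751 in the control retina, whereas *Gad1*, also on the list, was 1.02-fold the control level. Of the other markers not called, *Calb2* was 1.04-fold and *Slc18a3* 0.96-fold the control level, and *Tfap2a*, *Tfap2b* and *Gad2* were 1.39-fold, 1.35-fold and 2.36-fold. At P1 the sums were 3924 to 4627 in the *Otx2* CKO arrays and 3692 to 4264 in the control arrays, and no marker was called. Of 3 tested horizontal cell markers *Calb1* (log2 change −1.48, adjusted p = 3.19e-04) and *Lhx1* (−1.35, adjusted p = 0.00888) were lower and *Onecut2* was higher (1.42, adjusted p = 0.0236), and the summed signal of the list was 155 to 200.5 in the P12 *Otx2* CKO arrays and 304 to 421 in the P12 control arrays. The part of these cells in the transporter values was not tested.

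*Slc6a11* encodes GAT3, a GABA transporter of glia and of some amacrine cells. Its signal (1433989_at) was 115.3, 347.6 and 69.7 in the P12 *Otx2* CKO arrays and 62.4, 288.2 and 103.7 in the P12 control arrays. Experiment number 2 was high in both genotypes and the groups overlapped, so that the interval of the log2 change of 0.17 was wide (−0.95 to 1.29, adjusted p = 0.883). Its other probe set stayed at a deposited signal of at most 11.9.

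Among the plasma membrane transporters of glutamate, *Slc1a2* was lower at P12. It encodes GLT-1, which clears glutamate in brain astrocytes and in the retina is known from cones and bipolar cells. Its leading probe set (1438194_at) gave 98.7, 38.9 and 64.1 in the P12 *Otx2* CKO arrays, against 807.1, 145.5 and 542.9 in the P12 control arrays. Experiment number 2 was the lowest array of each genotype, and the highest *Otx2* CKO array was still below the lowest control array. The means were 67.2 ± 30.0 in the *Otx2* CKO retina and 498 ± 333 in the control retina (SD, n = 3 each), 7.42-fold lower in the *Otx2* CKO retina (log2 change −2.40, SE 0.66, adjusted p = 0.0294). The control spread was large, and the call was lost in a fit of the P12 arrays alone (adjusted p = 0.0564) and without some single arrays (0.0805 to 0.101). Markers of rods, cones and bipolar cells fell at the same age, with the sums given for *Slc17a7*, and their part in this result was not tested.

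A second probe set of *Slc1a2* (1451627_a_at) was also lower without overlap. It gave 0.8, 0.9 and 1 in the P12 *Otx2* CKO arrays, against 34.7, 94.6 and 46.3 in the P12 control arrays. The *Otx2* CKO signals stood at percentile 5.68 to 7.76 of their arrays and the control signals at percentile 59.9 to 77.7, and no fold is given because the *Otx2* CKO signals lie at the bottom of the array's range. The log2(signal + 16) values differed by −2.06 (SE 0.27, adjusted p = 2.31e-04), and this call was kept under each alternative that tested it. The size of the change moved with the offset, with −4.84 at an offset of 1 and −1.05 at an offset of 50. Its effect at P12 exceeded that at P1 by −1.56 (SE 0.39, adjusted p = 0.0423), a call that was lost with an offset of 1 (0.199), with an offset of 50 (0.0506) and under median scaling (0.0772). The other 3 probe sets of *Slc1a2* had deposited signals of at most 33.6, 45.6 and 46.0 and were not tested.

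**Figure D3:**
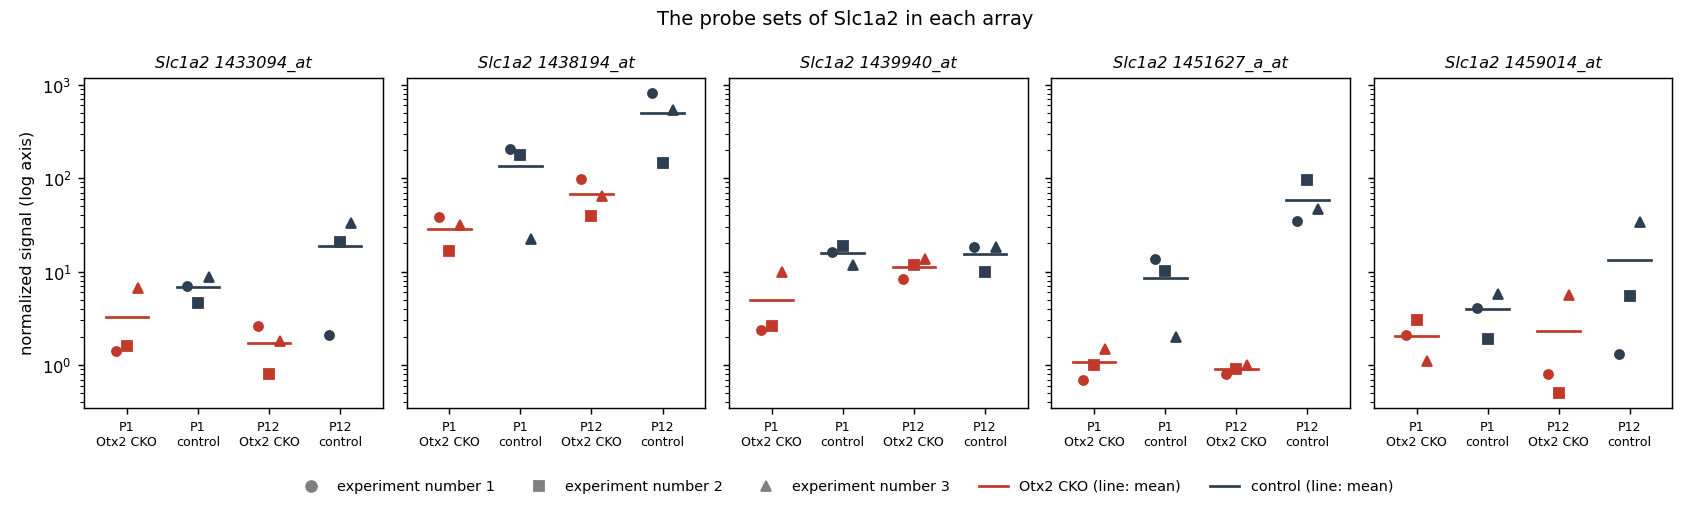
Normalized signal (log axis, shared) of the 5 *Slc1a2* probe sets in each array, with *Otx2* CKO arrays in red, control arrays in dark blue, the experiment number as the marker shape and the group mean as a line. Probe set 1438194_at runs from 38.9 to 98.7 in the P12 *Otx2* CKO arrays and from 145.5 to 807.1 in the P12 control arrays, and 1451627_a_at lies between 0.8 and 1 in the P12 *Otx2* CKO arrays.

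*Slc1a2* was also the member with the largest P1 difference, though it did not pass the test. The leading probe set gave 38.6, 16.6 and 31.5 in the P1 *Otx2* CKO arrays and 205.2, 177.3 and 22.2 in the P1 control arrays. Control replicate 3 lay within the *Otx2* CKO range, so that the groups overlapped (log2 change −1.43, 95% interval −2.93 to 0.08, adjusted p = 0.9996). Without that array the change was −2.26 (adjusted p = 0.398). Probe set 1451627_a_at was not tested at P1 and gave 0.7, 1 and 1.5 in the *Otx2* CKO arrays and 13.7, 10.2 and 2 in the control arrays. The same control replicate was the lowest, but these groups did not overlap. Probe set 1439940_at, also untested, gave 2.4, 2.6 and 9.9 in the *Otx2* CKO arrays and 16.2, 19 and 11.9 in the control arrays, again without overlap. The remaining untested probe sets overlapped at P1, and all these signals were low. The change of the leading probe set at P12 was not shown to differ from that at P1 (difference −0.98, 95% interval −3.01 to 1.06, adjusted p = 0.697).

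*Slc1a1*, which encodes the neuronal glutamate transporter EAAC1, was not called between the genotypes. Its leading probe set (1448299_at) gave 168.9, 262 and 213.2 in the P12 *Otx2* CKO arrays and 162.8, 264.3 and 191.9 in the P12 control arrays. The arrays of 1 experiment number differed less than those of 1 genotype, with log2 differences of 0.05, −0.01 and 0.14. The fitted change was 0.06 with a 95% interval of −0.49 to 0.61 (adjusted p = 0.922), and the other 2 probe sets gave 0.11 (1425415_a_at) and −0.06 (1460386_a_at). At P1 no probe set of *Slc1a1* reached the signal limit. Probe set 1425415_a_at then gave 21.1, 24.4 and 25.5 in the *Otx2* CKO arrays and 45.6, 39.5 and 42.9 in the control arrays, which did not overlap, and the other 2 probe sets overlapped.

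*Slc38a1* encodes a glutamine transporter of neurons. Its leading probe set (1454764_s_at) gave 809, 821.2 and 937.4 in the P12 *Otx2* CKO arrays and 609.3, 667.8 and 847.6 in the P12 control arrays. The groups overlapped through control replicate 3, and the log2 change was 0.28 (95% interval −0.06 to 0.61, adjusted p = 0.286). The second probe set (1415903_at) gave −0.04 (−0.67 to 0.59, adjusted p = 0.956), and its signals over the 12 arrays followed those of the first only weakly (Pearson r = 0.19).

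**Figure D4:**
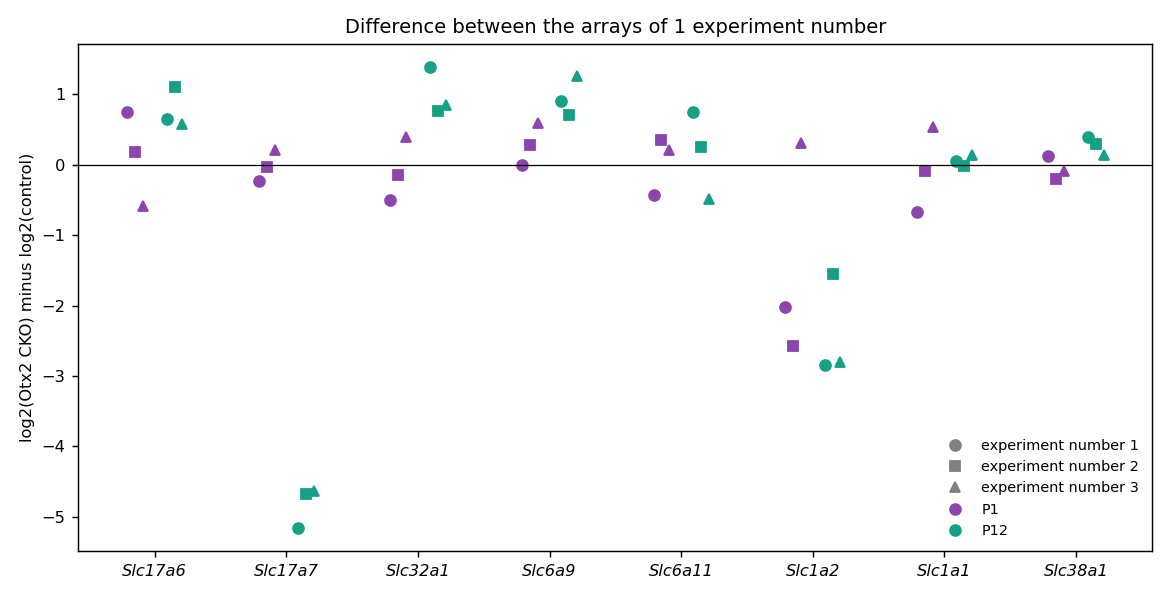
Difference in log2(signal + 16), *Otx2* CKO minus control, between the arrays of the same experiment number, for the leading probe set of each transporter gene at P1 (purple) and at P12 (green). *Slc17a7* and *Slc1a2* are below 0 in each P12 pair, *Slc17a6*, *Slc32a1*, *Slc6a9* and *Slc38a1* are above 0 in each P12 pair, and at P1 *Slc1a2* is at −2.02 and −2.57 in experiments 1 and 2 and at 0.31 in experiment 3.

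The experiment number carried much of the spread within the P12 groups. The log2 differences of *Slc17a7* in experiments 1 to 3 at P12 were −5.16, −4.67 and −4.64, those of *Slc1a2* −2.84, −1.56 and −2.80. *Slc32a1* differed by 1.39, 0.77 and 0.85, and the leading probe set of *Slc6a9* by 0.91, 0.70 and 1.26. *Slc6a11* had no common direction, with 0.74, 0.26 and −0.48. The 6 calls of probe sets at P12 also held with the experiment number as a block within each age, and 1 further member, *Slc17a6*, was then called.

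Among the tested probe sets of the members, more rose than fell with age. In the *Otx2* CKO retina 8 of 12 tested probe sets rose at P12 relative to P1 (4 of 7 genes) and none fell, where 22.4% of the 20638 probe sets tested were called (8.72% lower and 13.6% higher). The P12 arrays were all above the P1 arrays in 11 of the 12 and all below in none, beside 22.1% above and 15.9% below over all probe sets. In the control retina 9 of 14 tested probe sets rose at P12 relative to P1 (5 of 8 genes by their leading probe set) and none fell, where 34.7% of 18560 were called (14.4% lower and 20.3% higher). The P12 arrays were all above the P1 arrays in 10 of the 14 and all below in none, beside 26.7% above and 20.6% below over all probe sets. The median log2 change of the member genes was 1.39 in the *Otx2* CKO retina (7 genes) and 1.65 in the control retina (8 genes), beside 0.04 for all probe sets in each genotype. Only 4 member probe sets reached the signal limit in a P1 group, and the others were tested through their P12 signals alone. For those a rise is favoured by the filter, so that these counts and medians do not show a trait of the members.

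The largest rises with age in the *Otx2* CKO retina were those of the inhibitory transporter genes. *Slc6a9* was 8.05-fold higher at P12 than at P1 in the *Otx2* CKO retina (log2 change 2.83, adjusted p = 3.36e-06) and 5.16-fold higher in the control retina (2.16, adjusted p = 1.65e-05). *Slc32a1* was 8.20-fold higher in the *Otx2* CKO retina (2.78, adjusted p = 2.41e-05) and 3.95-fold higher in the control retina (1.70, adjusted p = 5.88e-04). The tests of the difference between these rises are those of the genotype effects given for each gene. *Slc1a1* rose in both genotypes, by 4.06-fold in the *Otx2* CKO retina (1.75, adjusted p = 3.72e-04) and by 3.63-fold in the control retina (1.61, adjusted p = 3.66e-04).

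*Slc1a2* (1438194_at) had a log2 change with age of 0.86 in the *Otx2* CKO retina (adjusted p = 0.403) and of 1.84 in the control retina, where it passed narrowly (adjusted p = 0.0499). *Slc38a1* (1454764_s_at) rose by 0.57 in the *Otx2* CKO retina (adjusted p = 0.0190), and gave 0.24 in the control retina (adjusted p = 0.263). The call in the *Otx2* CKO retina was lost under median scaling (0.545), under 2% trimmed mean scaling (0.0973) and without P1 *Otx2* CKO replicate 2 or 3 or P12 *Otx2* CKO replicate 3 (0.0624 to 0.0785), and the other probe set gave −0.10 (adjusted p = 0.857). The ages were scanned at very different brightness, and with the signals as deposited 99.4% of the calls were upward in the *Otx2* CKO retina and 98.2% in the control retina, so that rises with age are relative to the other probe sets of the array. With quantile normalization, median scaling and 2% trimmed mean scaling of all arrays alike, *Slc17a7* (in control), *Slc32a1*, *Slc6a9* and *Slc1a1* were higher at P12 and were called by their leading probe sets.

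**Figure D5:**
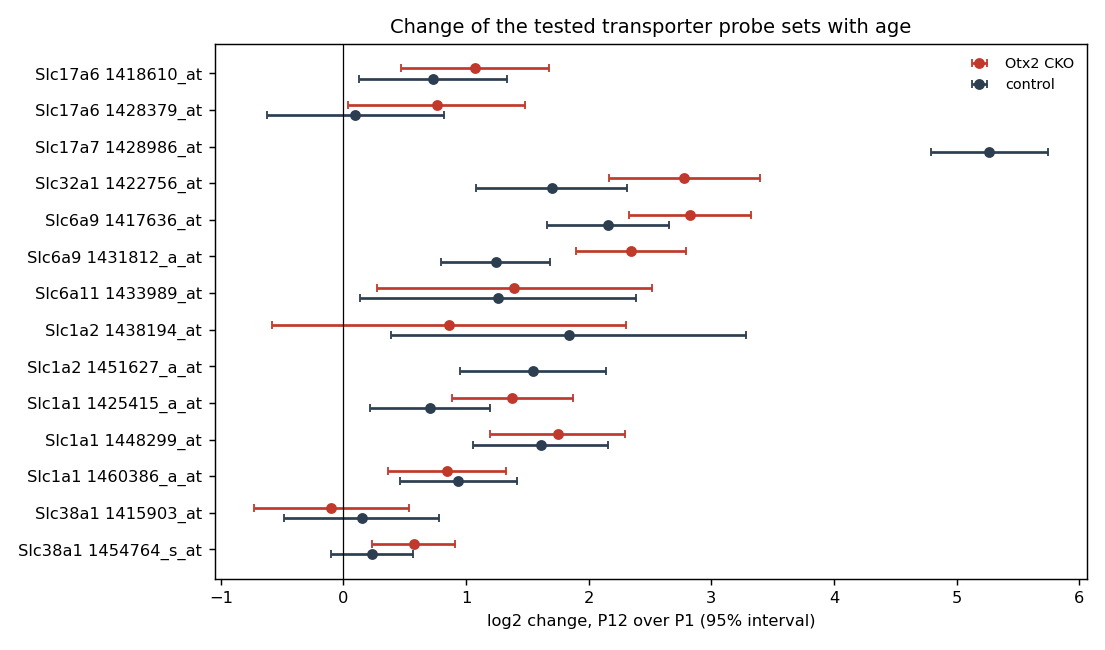
Log2 change, P12 over P1, with its 95% interval for the transporter probe sets tested in the *Otx2* CKO retina (red) and in the control retina (dark blue). *Slc17a7* and probe set 1451627_a_at of *Slc1a2* have a control point only, because their *Otx2* CKO signals were below the limit at both ages, and *Slc17a7* in the control retina lies at 5.27.

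Other genes of transmitter transport gave a mixed picture at P12. Of 19 further transporter genes listed, 18 had a probe set and 13 were tested, of which 3 were lower and 1 was higher (median log2 change −0.04), beside 13.9% called over all probe sets tested. *Slc1a7*, a glutamate transporter of photoreceptor and bipolar cell terminals (EAAT5), gave 16.4, 26.1 and 14.5 in the P12 *Otx2* CKO arrays, against 422.8, 535.4 and 676.5 in the P12 control arrays (log2 change −3.99, SE 0.25, adjusted p = 3.47e-07). The taurine transporter gene *Slc6a6* fell by 1.26 on the log2 scale (SE 0.24, adjusted p = 0.00353), and the glutamine transporter gene *Slc38a3* by 1.09 (SE 0.18, adjusted p = 0.00127), a call lost under median scaling (0.0751).

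The gene that rose was *Slc1a3*, which encodes GLAST, the glutamate transporter of Müller glia. It gave 667.3, 561.9 and 571.4 in the P12 *Otx2* CKO arrays, against 353.3, 328.6 and 260.8 in the P12 control arrays (log2 change 0.91, SE 0.18, adjusted p = 0.00377). It was 1.91-fold higher without overlap of the arrays, but lost the call under median scaling (adjusted p = 0.0647). Of 10 Müller glia markers, *Slc1a3* among them, 3 were higher, where 6.79% of all probe sets tested at P12 were called higher. The sums of the 10 markers were 12221 to 14582 in the *Otx2* CKO arrays and 7790 to 9914 in the control arrays. Much of this difference was *Apoe*, with a P12 mean of 3855 in the *Otx2* CKO retina and 1096 in the control retina, whereas *Clu* was 0.94-fold the control level. Of these markers *Glul*, which makes glutamine from glutamate, gave a change of 0.07 (adjusted p = 0.784). The neuronal glycine transporter gene *Slc6a5* (GLYT2), picked out after its values were seen, gave 77.1, 65.7 and 48.3 in the P12 *Otx2* CKO arrays, against 22.3, 38.5 and 39.1 in the P12 control arrays (0.70, adjusted p = 0.0609, or 0.0179 with the experiment number as a block within each age). None of the 6 further transporter genes tested at P1 was called.

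Of 15 listed genes of transmitter synthesis and breakdown 12 had a probe set and 11 were tested at P12, and 1 was lower and 1 higher (median log2 change 0.31), where 13.9% of all probe sets tested were called. *Abat*, the GABA transaminase gene, gave 668.6, 903.4 and 967.7 in the P12 *Otx2* CKO arrays, against 254.5, 346.1 and 372.6 in the P12 control arrays (log2 change 1.34, SE 0.20, adjusted p = 4.99e-04). *Got1*, an aspartate aminotransferase gene, fell by 1.09 (SE 0.23, adjusted p = 0.00722), a call lost under median scaling (0.193) and with the signals as deposited (0.0750).

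Neither gene of the GABA-making enzymes was called at either age. *Gad1* gave 1209.2, 1240.8 and 1192.1 in the P12 *Otx2* CKO arrays and 1201.5, 1205.5 and 1159.8 in the P12 control arrays (log2 change 0.03, SE 0.20, adjusted p = 0.952), with its sign reversed under 2 of the scalings. At P1 it gave 144, 112.1 and 189.2 in the *Otx2* CKO arrays and 308.1, 302.1 and 202.3 in the control arrays, without overlap but not past the threshold (−0.81, adjusted p = 0.383). *Gad2* gave 303.6, 87.2 and 120.2 in the P12 *Otx2* CKO arrays and 123.9, 38.2 and 54.9 in the P12 control arrays, where experiment number 1 was the highest array of each genotype (1.02, SE 0.47, adjusted p = 0.188, or 0.00695 with the experiment number as a block within each age). The study's text names *Gad2* as increased in these arrays. None of the 10 genes of this list tested at P1 was called.

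For each member the 3 genes with the most similar pattern over the 12 arrays were found by Pearson correlation of log2 signals. These correlations are given as a description, since the arrays share 2 ages and 2 genotypes that set most of the pattern. *Slc17a7* was followed most closely by *Klhl18* (r = 0.995), *Stx3* (0.993) and *Tlcd3b* (0.993), *Slc32a1* by *Sorl1*, *Atp2b3* and *Crtac1* (each r = 0.989), and *Slc6a9* by *Ddah1* (0.986), another probe set of *Sorl1* (0.986) and *Atp2b2* (0.985). *Slc1a2* was followed by *C1ql3* (0.966), *Lifr* (0.958) and *Jam2* (0.958), and *Slc17a6* by *Scn2a* (0.968), *Unc5c* (0.961) and *Nrcam* (0.952). The lists for the others were *Srxn1*, *Nipal3* and *Cx3cl1* for *Slc1a1* (0.988 to 0.990), *Asb1*, *Adcy9* and *Elmo2* for *Slc6a11* (0.960 to 0.965), and *Homer2*, *Clip4* and *Rcan2* for *Slc38a1* (0.942 to 0.947). Between members, r over the 12 arrays was 0.94 for *Slc32a1* and *Slc6a9*, 0.76 for *Slc17a7* and *Slc1a2*, 0.36 for *Slc17a7* and *Slc32a1*, and −0.18 for *Slc17a7* and *Slc17a6*.

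Markers of microglia and of the pigment epithelium also differed at P12. All 7 tested microglia markers were higher in the *Otx2* CKO retina (sums of 1211 to 2365 in the *Otx2* CKO arrays and 381 to 696 in the control arrays), and so were 2 of 6 tested markers of the pigment epithelium (1027 to 2764 in the *Otx2* CKO arrays and 582 to 1522 in the control arrays). Over all probe sets tested at P12 6.79% were called higher. Markers of lens and of red blood cells were below the signal limit. Their part in the transporter values was not tested.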

How the data were processed

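The authors labeled total retinal RNA as biotinylated cRNA, hybridized it to Affymetrix mouse genome GeneChips and determined signal intensity with GeneChip Operating Software; the deposited values are linear signal intensities, 1 array per sample. A scaling target and normalization are not given in the sources used here. Of 45101 probe sets 64 array controls were left out of the tests, 34945 had 1 gene symbol, 932 several and 9160 none; 826 values were 0, and at most 3.07% of values were identical between any 2 arrays.

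The deposited arrays differ in brightness, so they were quantile normalized together. Log2(signal + 16) was fitted with limma 3.58.1 (R 4.3.3, lmFit and eBayes with a trend), in a single model of the 4 groups without a block, and probe sets with a deposited group mean of 50 or more in a group of the comparison were tested, with Benjamini-Hochberg adjustment. The script was tested on simulated data. Figures were drawn with matplotlib.

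Arrays of the same experiment number deviated together: the correlation of their deviations from the group means was 0.14 to 0.21 for the 3 pairs at P1 and 0.59 to 0.89 at P12. It was below 0 for every pair of different numbers, which follows largely from taking deviations from means of 3 arrays and adds no separate evidence. In an alternative fit the numbers were therefore taken as pairs within an age, from the data and not from the labels. The main model left this pairing out.

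The member genes and gene lists were chosen with earlier results of these data known. Every single-symbol probe set of the members is reported; of the other lists up to 4 called genes per genotype comparison with the largest changes are named, together with *Slc1a3*, *Gad1*, *Gad2*, *Glul*, *Otx2* and the 3 genes most correlated with each member. The signal of *Slc17a8* was not analysed here. Alternatives were other scalings, offsets, signal filters, the experiment number as a block, the arrays compared alone, no trend, the study's own limits and leaving out each array.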

Additional observations from a re-analysis of the deposited data

Results flagged for a closer look

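The genotype effect differed between the ages for 1 probe set each of 2 members, by the test of the difference itself. The effect on *Slc17a7* (1428986_at) at P12 exceeded that at P1 by −4.81 on the log2 scale (limma adjusted p = 1.64e-05), and the control signals at P1 were already as low as those of the *Otx2* CKO retina. This probe set was under the signal limit in each group but the P12 control. With both P1 groups that low, a P1 effect could hardly be seen, and the difference largely restates the P12 change. For *Slc1a2* probe set 1451627_a_at the difference was −1.56 (limma adjusted p = 0.0423), with an adjusted p of 0.00222 to 0.199 over the alternatives run. That call was lost in 10 of 12 fits without 1 array and under 3 other settings, the leading probe set of *Slc1a2* gave −0.98 (adjusted p = 0.697), and 1451627_a_at was under the signal limit in each group but the P12 control. The part of array brightness and of the lowered photoreceptor and bipolar cell markers in these differences was not tested.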

How the results depend on the processing

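The P12 calls of *Slc17a7* and of probe sets 1451627_a_at of *Slc1a2* and 1431812_a_at of *Slc6a9* held under each alternative that tested them, and 1451627_a_at was not tested with a signal limit of 100. *Slc17a7* ranged from a log2 change of −5.66 to −3.87 over other settings. *Slc32a1* lost its P12 call without P1 control replicate 1, 2 or 3, P12 control replicate 1 or 3, or P12 *Otx2* CKO replicate 2 or 3 (adjusted p 0.0501 to 0.103). *Slc1a2* (1438194_at) lost it without P12 control replicate 1 or 3 or P12 *Otx2* CKO replicate 2 or 3 (0.0805 to 0.101), and *Slc6a9* (1417636_at) without P12 control replicate 3 (0.0674) or P12 *Otx2* CKO replicate 3 (0.0503). The difference between the ages for *Slc1a2* (1451627_a_at) was lost without any one array other than P12 control replicate 1 or 2 (0.0509 to 0.123). The P12 control against P1 control call of *Slc1a2* (1438194_at) was lost under 5 of 12 other settings and in 9 of 12 fits without 1 array. The cause was not tested.

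The number of member genes called at P12 was 4, and 2 under median scaling, 2 with only the arrays of the groups compared, and 1 to 4 without 1 array (1 without P12 control replicate 3 or P12 *Otx2* CKO replicate 3, and 2 without P12 control replicate 1 or P12 *Otx2* CKO replicate 2). It was 1 for the difference between the ages, and 2 when any probe set of a gene counted. At P1 it was 0, and 1 (*Slc1a2*) by the study's limits of fold and signal without a test. With the signals as deposited and with quantile normalization within each age it was 7 instead of 4 for P12 against P1 in the *Otx2* CKO retina, and 8 instead of 5 for P12 against P1 in the control retina.

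The number of probe sets called at P1 was 19, and 10 with a signal limit of 100, 94 by the study's limits, and 12 to 34 without 1 array. At P12 it was 2968, and 1914 under median scaling, 1194 with only the arrays compared, 4720 by the study's limits, and 1968 to 3427 without 1 array. For the difference between the ages it was 816, and 427 under median scaling and 480 to 1010 without 1 array. For P12 against P1 it was 19972 as deposited, 19791 with quantile normalization within each age and 8213 under spike scaling in the *Otx2* CKO retina, where it was otherwise 4616, and 15636 as deposited and 17131 with quantile normalization within each age in the control retina, where it was otherwise 6440. The share of calls that were higher at P12 in *Otx2* CKO against control was 48.9%, and 75.7% as deposited, where the median of all probe sets was 0.39, and 33.4% with only the arrays compared. For the difference between the ages it was 27.3%, and 63.2% as deposited. For P12 against P1 it was 61.0% in the *Otx2* CKO retina, and 99.3% with quantile normalization within each age and 93.5% under spike scaling. In the control retina it was 58.5%, and 98.6% with quantile normalization within each age, 91.1% under spike scaling and 46.9% under median scaling.

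The median log2 change of all probe sets was −0.20 at P1 as deposited, and for P12 against P1 it was 1.85 as deposited, 1.65 with quantile normalization within each age and 0.55 under spike scaling in the *Otx2* CKO retina, and 1.45, 1.70 and 0.62 in the control retina under these 3 settings.

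With the replicate block over both ages, the number called was 4494 at P12 and 1475 for the difference between the ages, and *Slc6a11* was then called with age in the *Otx2* CKO (adjusted p = 0.0118) and control retina (0.0148) and *Slc17a6* (1418610_at) in the control retina (0.0195). With the replicate block within each age, an alternative chosen after seeing the data, it was 44 at P1, 7158 at P12 and 3572 for the difference, where 2 member genes were called by their leading probe sets (*Slc17a7* and *Slc32a1*) and *Slc6a9* and *Slc1a2* by another. Between the genotypes, beside the blocked calls given above, the block within each age changed no other call of a member.

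Signs reversed only for changes that were not called in the main analysis, and these log2 values follow. As deposited they were −0.10 for *Slc17a6* at P1 (1428379_at), 0.24 for *Slc1a1* (1460386_a_at) and 0.28 for *Slc38a1* (1415903_at) at P12, 0.29 and 0.27 for the difference between the ages of these 2 probe sets, and 2.08 for *Slc38a1* (1415903_at) with age in *Otx2* CKO, which was 1.84 with quantile normalization within each age and 0.51 under spike scaling. Median scaling gave 0.01 (0.0093) for *Slc1a1* (1460386_a_at) at P12 and −0.11 for *Slc17a6* with age in control. Spike scaling gave 0.031 for *Slc38a1* (1454764_s_at) at P1 and −0.022 for *Gad1* at P12, which was −0.015 under trimmed mean scaling. Where leaving out 1 array reversed a sign, the values without 1 array spanned, at P1, −0.058 to 0.34 for *Slc17a6* (1428379_at) and −0.14 to 0.016 for *Slc38a1* (1454764_s_at). At P12 they spanned −0.41 to 0.70 for *Slc6a11*, −0.033 to 0.37, −0.086 to 0.23 and −0.21 to 0.13 for *Slc1a1* (1425415_a_at, 1448299_at and 1460386_a_at), −0.30 to 0.31 for *Slc38a1* (1415903_at) and −0.035 to 0.15 for *Glul*. For the difference between the ages they spanned −0.45 to 0.67 for *Slc6a11*, −0.029 to 0.32 and −0.24 to 0.10 for *Slc1a1* (1448299_at and 1460386_a_at), −0.0049 to 0.58 for *Slc17a6* (1418610_at) and −0.51 to 0.096 for *Slc38a1* (1415903_at). With age they spanned −0.10 to 0.47 for *Slc17a6* (1428379_at) in control and −0.36 to 0.25 for *Slc38a1* (1415903_at) in *Otx2* CKO.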
